A study of Mus musculus with 12 samples.

Results

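Aminoacyl-tRNA synthetases are the enzymes that join each amino acid to its own tRNA before the ribosome uses it. Members were chosen by mouse gene symbol alone: a capital letter followed by "ars", with an optional 1 or 2, together with Farsa, Farsb and Eprs. The rule found 37 genes among 15391. Of these, 20 encode cytosolic enzymes and 17, whose symbols end in 2, encode mitochondrial ones. The RNA came from cultured sensory neurons of the adult mouse dorsal root ganglion. All mice had the genotype RPL22HA+/+;Advillin-Cre+, and all samples are labelled Preconditioned, meaning a nerve injury before culture. In this RiboTag design the ribosomal protein Rpl22 gains an HA tag only where Cre, expressed as the sensory-neuron gene Advillin is, has acted. Neurons received an adeno-associated virus, either a control (worded AAV-Control in the titles of the IP samples and AAV-shControl in those of the input) or AAV-shLarp1, a short hairpin against Larp1. Input RNA and the product of an anti-HA immunoprecipitation (IP) were sequenced for each virus, giving 4 groups: control input, shLarp1 input, control IP and shLarp1 IP. The promoter of the viruses, the age in weeks and the number of animals per sample are not stated in the sources used here. Non-neuronal cells of the culture contribute to input and carry no tag.

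Cytosolic synthetases charge the tRNAs used on cytoplasmic ribosomes, and 8 of the members sit together in a multisynthetase complex held by the scaffold proteins Aimp1, Aimp2 and Eef1e1. A separate, nuclear-encoded set charges the tRNAs of the mitochondrial genome, except that Kars (lysine) and Gars (glycine) each supply both compartments from a single gene. Dominant mutations in several cytosolic synthetase genes, Gars first among them, cause inherited peripheral neuropathy, a disease of long motor and sensory axons. Many cytosolic synthetase genes are also switched on by the transcription factor ATF4 when amino acids are short. Larp1 binds the cap and the pyrimidine tract at the start of TOP mRNAs, which encode ribosomal proteins and translation factors.

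The IP columns held 3126591 to 3177552 estimated counts each and the input columns 564095 to 760140. Within a group, 6.98% to 7.62% of genes with at least 30 counts had a chi-square p under 0.05 across the 3 columns, against 4.50% to 5.03% in random parts of the summed counts. Among the synthetases, 5 of 77 pairs of gene and group did (6.49%). Columns of a group therefore differed by little more than sampling noise and were summed as 1 sample, so no difference between the viruses has a replicate check. Each log2 ratio below is of summed counts scaled by TMM factors, with a 95% exact (Clopper-Pearson) interval for counting error only. PCR copies without molecular identifiers are not independent molecules. A gene was called where its whole interval lay beyond 1.5-fold. The 28 synthetases that passed a filter on low counts comprised all 20 cytosolic and 8 mitochondrial members. Larp1, the target, had 147, 141 and 154 counts in control IP and 55, 49 and 45 in shLarp1 IP (log2 -1.72, -2.0 to -1.45). All 17 sensory neuron markers had counts in every group, and their summed level was 6753 to 7175 TMM-scaled CPM in IP and 1722 to 2842 in input. Glial markers summed to 485 to 526 CPM in IP and 542 to 631 in input, so their level in IP was little below that in input. Fibroblast markers summed to 146 to 170 in IP and 359 to 563 in input. Macrophage markers had 61.8 to 68.3 in IP and 65.2 to 132 in input, and vessel markers 71.6 to 93.7 and 75.7 to 152. Pdgfra, Pecam1 and Kdr were at 0 in shLarp1 input and Lum was at 0 in control input.

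Promoter sequences were found for 27 of the 37 synthetases (RefSeq, GRCm38.p6, 250 bases before to 50 after the annotated start; Mars is listed there as Mars1). Those with the letters of an amino acid response element are shown first, because ATF4 switches on many cytosolic synthetase genes. The letters searched were TGATGNAA on both strands. They occurred in 5 of 13 cytosolic promoters (38.5%), in 0 of 14 mitochondrial ones, in 4.51% of all 27025 promoters and in 26.9% of 26 amino acid response genes. Capitals mark the match, and each window reads 5′ to 3′ along the gene. In Yars it reads in the direction of the gene and in the others on the opposite strand.
Aars, chr8:111033841-111033868, + strand: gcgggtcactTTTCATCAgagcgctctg
Gars, chr6:55037961-55037988, + strand: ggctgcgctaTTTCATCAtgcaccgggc
Iars, chr13:49682127-49682154, + strand: actgtcagtaTTGCATCAcctccagacg
Tars, chr15:11399656-11399683, - strand: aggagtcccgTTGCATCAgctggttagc
Yars, chr4:129189896-129189923, + strand: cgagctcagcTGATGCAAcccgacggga
These 5 genes charge alanine, glycine, isoleucine, threonine and tyrosine. The matches shown lay between 30 bases before the annotated start and 17 bases after it. A match describes letters only, and neither its presence nor its absence shows whether a gene is stress-induced.

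Start sites are shown next, because Larp1 binds pyrimidine tracts there. The search was for a C followed by at least 4 pyrimidines, beginning within 3 bases of the annotated start. It found 4 of 27 synthetases (14.8%), against 13.5% of all genes and 41.5% of 53 ribosomal protein genes. Capitals mark the tract.
Farsa, chr8:84856981-84857005, + strand: ggtCCCCTagtcaggtccggcggcc
Gars, chr6:55037996-55038020, + strand: gcgccgCTTCCgtagccgccctgcg
Qars, chr9:108508000-108508024, + strand: gcttcgtaCTCCTattggtcaatga
Wars2, chr3:99141085-99141109, + strand: ccgCCCTTCTCaagatggcgctgtt
The results below turn on Wars2, whose tract is shown above, and on Kars, Tars, Cars2 and Lars2. For contrast, the starts of Kars, Tars, Cars2 and Lars2 had no such tract.
Kars, chr8:112011335-112011359, - strand: cggaagaggcaggacttagagccac
Tars, chr15:11399639-11399663, - strand: tggttagctggttccgcctgtggcc
Cars2, chr8:11550752-11550776, - strand: gcggagccccatgaggaacgggcgt
Lars2, chr9:123366922-123366946, + strand: ctttcgataaagttgttgttttgcc
The share of synthetases with a tract was close to that of all genes. A match describes letters at an annotated start and does not show a TOP mRNA.

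Which synthetase mRNAs differed between the viruses in the IP was the first comparison. None of the 28 passed the 1.5-fold rule in either direction, while 5.12% of all 8766 genes with a value did. Their median log2 ratio of shLarp1 over control was 0.00, beside -0.08 for all genes, and it was 0.02 for the 20 cytosolic and -0.15 for the 8 mitochondrial members. The interval excluded equality for 10 members. It lay above 0 for Farsb, Lars2, Mars, Nars and Wars, as for 13.4% of all genes, and below 0 for Cars2, Hars, Kars, Tars and Wars2, as for 29.6%. With the 3 columns treated as replicates, edgeR's quasi-likelihood test with Benjamini-Hochberg adjustment called 6 members (Cars2, Farsb, Kars, Lars2, Tars and Wars2), and DESeq2 called 5. With edgeR 10 members had an unadjusted p under 0.05. Of all 8773 genes, edgeR called 2442 and DESeq2 1881. After scaling, the shLarp1 columns lay wholly above the control columns in 6 members and wholly below in 5, as in 14.4% and 28.8% of all genes.

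Farsb encodes the beta subunit of cytosolic phenylalanyl-tRNA synthetase, and it had the highest IP ratio of the 28. Its counts were 53, 50 and 65 in control IP and 87, 99 and 116 in shLarp1 IP. The shLarp1 columns were all higher, and the summed ratio was 0.69 (0.42 to 0.98), or 1.62-fold. Farsa, the alpha subunit of the same enzyme, held 51, 49 and 48 counts in control IP and 45, 48 and 51 in shLarp1 IP. These overlapped before scaling and just separated after it, and the ratio was -0.19 (-0.53 to 0.15). The difference between both subunits, which no scaling of the groups can change, was 0.88 (0.46 to 1.31). In input both had few counts, 3, 2 and 1 against 1, 8 and 2 for Farsb and 1, 4 and 4 against 3, 2 and 1 for Farsa. Their difference there was 1.37 with an interval of -0.63 to 3.37, so it was not detectable at this depth. Farsb overlaps Sgpp2 in the annotation, and reads of overlapping genes cannot be told apart in this table.

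**Figure D1:**
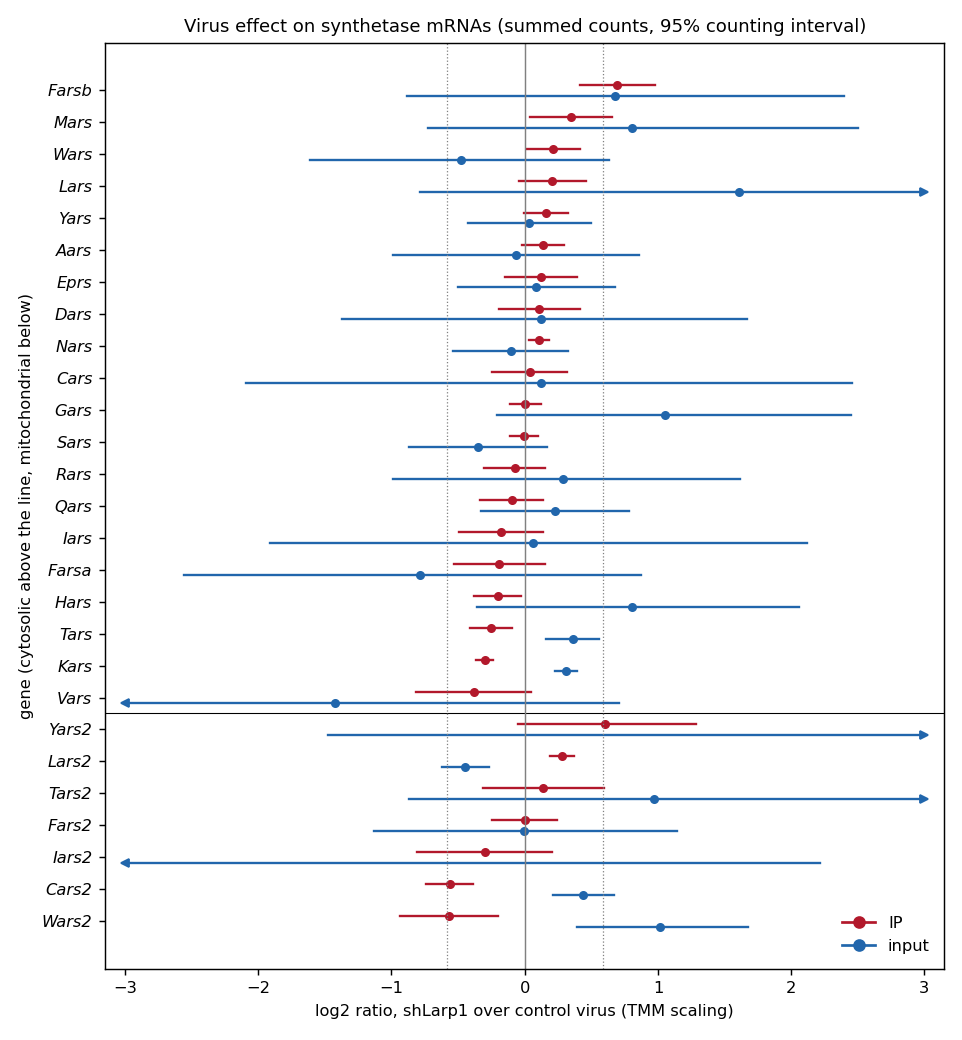
Log2 ratio of shLarp1 over control for 27 synthetases that passed the filter, in IP (red) and input (blue), from summed counts with TMM scaling. Horizontal bars are 95% counting intervals, arrows mark intervals that run past the axis and dotted lines mark 1.5-fold. Kars, Tars, Cars2 and Wars2 lie left of 0 in IP and right of 0 in input, and Lars2 the other way round.

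Kars, Tars, Cars2 and Wars2 had IP intervals below 0 and, as described further on, input intervals above 0. Kars held 1381, 1371 and 1279 counts in control IP and 1204, 1224 and 1204 in shLarp1 IP. Every shLarp1 column was below every control column, and the ratio was -0.30 (-0.37 to -0.24). Tars, which charges threonine, had 224, 234 and 235 counts against 237, 216 and 194. The raw columns overlapped, the scaled ones did not, and the ratio was -0.25 (-0.41 to -0.09). For Cars2, the mitochondrial cysteine enzyme, the columns were 200, 200 and 227 against 165, 157 and 149. They did not overlap, and the ratio was -0.56 (-0.74 to -0.39), or 1.48-fold lower. Wars2, the mitochondrial tryptophan enzyme, had 62, 47 and 38 counts against 43, 39 and 28. Its columns overlapped, and the ratio was -0.57 (-0.94 to -0.20). These 4 ratios stayed below 0 with DESeq2, upper-quartile and total-count scaling, but the interval of Tars came to include 0 with upper-quartile (-0.12, -0.28 to 0.03) and total-count scaling (-0.12, -0.28 to 0.03).

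Lars2, the mitochondrial leucine enzyme, lay on the other side, with 596, 596 and 584 counts in control IP and 765, 781 and 850 in shLarp1 IP. All shLarp1 columns were higher, and the ratio was 0.28 (0.19 to 0.37). Nars, for asparagine, had the second most IP counts of the cytosolic members, with 858, 851 and 835 in control IP and 998, 1069 and 973 in shLarp1 IP. Its columns did not overlap, yet the ratio was 0.11 (0.03 to 0.18), well inside 1.5-fold. Sars, for serine, held 455, 476 and 466 against 499, 531 and 514. Its ratio was -0.01 (-0.11 to 0.10), since equal IP counts correspond to -0.15 with this scaling. Gars had 371, 401 and 418 counts against 429, 470 and 427, and a ratio of 0.00 (-0.11 to 0.12). Fars2, the mitochondrial phenylalanine enzyme, had 88, 81 and 94 against 90, 91 and 111 (-0.00, -0.25 to 0.25). For Sars, Gars and Fars2 the counting interval leaves room for no more than about 0.25 in either direction, a statement about these samples only.

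Synthetase genes linked to inherited neuropathy (Aars, Gars, Hars, Kars, Mars, Nars, Sars, Wars and Yars) spanned -0.30 to 0.35 in the IP, with a median of 0.11 and 0 of 9 called. Mars, for methionine, had the highest value of the 9, with 51, 48 and 53 counts against 72, 69 and 74 (0.35, 0.04 to 0.66). Mars overlaps Ddit3 in the annotation. Hars, for histidine, had 194, 188 and 177 against 159, 203 and 177, columns that overlapped (-0.20, -0.38 to -0.03). The 8 enzymes of the multisynthetase complex had a median of 0.02, and the 15 members of class I and 13 of class II had medians of 0.04 and -0.00. Members with the letters of an amino acid response element in the promoter had Aars at 0.14, Gars at 0.00, Iars at -0.18, Tars at -0.25 and Yars at 0.16. Those with a start tract had Farsa at -0.19, Gars at 0.00, Qars at -0.10 and Wars2 at -0.57. The response-element members thus lay on both sides of 0, while those with a start tract lay at or below it, and among these 4 the interval of Wars2 alone excluded 0.

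Input RNA was compared next, where synthetase counts were far lower. No synthetase passed in input, beside 1.19% of 7588 genes. The interval lay above 0 for Cars2, Kars, Tars and Wars2 (8.97% of all genes) and below 0 for Lars2 (9.19%). edgeR's quasi-likelihood test on the columns called the same 5 genes, which were also the 5 with an unadjusted p under 0.05, and DESeq2 called 4. Of all 8773 genes, edgeR called 780 and DESeq2 890. The median of the 26 members with counts in both inputs was 0.12, beside -0.14 for all genes. Equal counts in both inputs correspond to -0.20 here. Scaled columns lay wholly above control in 4 members and wholly below in 2, as in 8.97% and 12% of all genes.

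Kars gave the most precise input value of the family, with 682, 680 and 676 counts in control input and 965, 960 and 975 in shLarp1 input. The columns were far apart, and the ratio was 0.31 (0.23 to 0.39). Tars held 125, 116 and 113 against 172, 185 and 164, again without overlap (0.36, 0.16 to 0.56). Cars2 had 101, 70 and 92 against 152, 145 and 112. These raw columns were apart, the scaled ones overlapped (171 to 247 against 239 to 323 TMM-scaled CPM), and the ratio was 0.44 (0.21 to 0.67). Wars2 had 7, 8 and 16 counts against 23, 27 and 22. All shLarp1 columns were higher, and the ratio was 1.02 (0.39 to 1.67), or 2.02-fold with a lower limit under 1.5-fold. Without control input column 3 it was 1.73 (0.91 to 2.64). Leaving out a column also changes the TMM factors. Kars, whose input columns were near equal, ranged from 0.31 to 0.57 in input as each column was left out. Lars2 differed in the other direction, with 171, 210 and 185 against 159, 174 and 144. Its raw columns overlapped, the scaled ones did not, and the ratio was -0.45 (-0.62 to -0.27). With total-count scaling the intervals of Kars (0.08, -0.00 to 0.16), Tars (0.13, -0.07 to 0.33) and Cars2 (0.21, -0.02 to 0.44) included 0, while all 5 signs held under every scaling tried.

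Marker levels also differed between the inputs. The summed level of the sensory neuron markers was 2693 to 2842 CPM in control input and 1722 to 1774 in shLarp1 input, and 6753 to 6833 and 7048 to 7175 in IP. Much of this input difference lay in Uchl1, a neuronal ubiquitin hydrolase (1772 against 935 summed counts, -1.12, -1.24 to -1.01), the sole marker of the 17 that was called. The median of the 17 was -0.25, near the -0.20 of equal counts, and Nefl (0.32) and Avil (0.22) had values above 0 with intervals that included it. Fibroblast markers summed to 359 to 441 CPM in control input and 462 to 563 in shLarp1 input, macrophage markers to 96.8 to 132 and 65.2 to 72.2, vessel markers to 149 to 152 and 75.7 to 110, and glial markers overlapped, at 542 to 595 and 553 to 631. Fewer neurons in the culture and less RNA per neuron cannot be told apart in such samples. The part of these marker differences in the synthetase values was not tested. The other members had input intervals that included 0. Gars had 1, 2 and 5 counts against 5, 7 and 7 (1.05, -0.21 to 2.45), and Nars had 28, 25 and 37 against 38, 25 and 33 (-0.11, -0.54 to 0.33). At such counts a doubling of Gars was within the counting error.

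**Figure D2:**
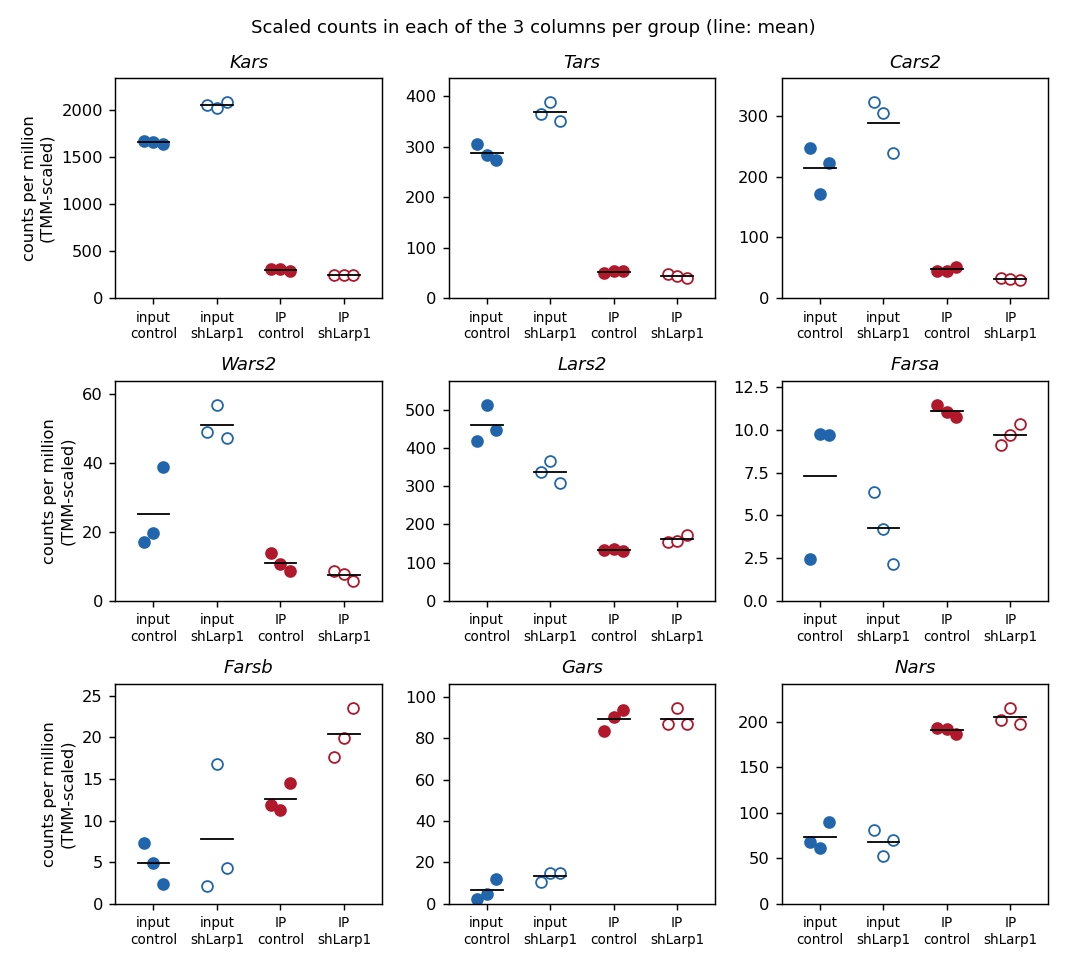
Expression in TMM-scaled CPM in each of the 12 columns for 9 synthetases. Filled points are the control virus, open points shLarp1 and short lines the mean of 3 columns. Kars, Tars and Cars2 are higher in input than in IP with both viruses, and in IP the shLarp1 points of Farsb lie above the control points while those of Farsa lie just below.

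The interaction asked whether the virus ratio in the IP differed from that in input, with 0.5 counts added to each group and a normal approximation for the interval. Cars2 and Wars2, both mitochondrial, were lower in the IP relative to input, and none was higher. That is 2 of 28 members lower where 5.56% of all genes were, and 0 higher where 1.38% were. Cars2 had -1.0 (-1.28 to -0.72) and Wars2 -1.57 (-2.27 to -0.87), the latter -2.19 (-3.06 to -1.32) without control input column 3. Both calls ended with total-count scaling (Cars2 -0.64, -0.92 to -0.36; Wars2 -1.21, -1.91 to -0.51), which instead called Lars2 higher (1.08, 0.89 to 1.28).

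Kars and Tars had nearly equal values of -0.61 (-0.72 to -0.51) and -0.61 (-0.86 to -0.36), and Lars2 had 0.73 (0.53 to 0.92). None of these 3 passed the 1.5-fold rule. Kars came to pass with DESeq2 size factors (-0.82) and whenever an input column was left out, which also shifted the scaling. With total-count scaling Kars and Tars were both at -0.25. Gars had -0.99 (-2.16 to 0.17) and Hars -0.97 (-2.06 to 0.12), wide intervals set by their input counts. The median of the 20 cytosolic members was -0.03 and that of the 8 mitochondrial ones -0.54, beside 0.07 for all genes.

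Kars, Tars and Cars2 belonged to 781 genes whose IP-to-input ratio had a mean log2 below -2 over both viruses. Those genes had a median of -0.48 in the IP, 0.43 in input and -0.90 in the interaction, while genes outside the class had -0.01, -0.20 and 0.17. Of the 3, Cars2 was nearest the limit, with a mean ratio of -2.69, and Wars2, at -1.996, lay just outside. Lars2, with a mean ratio of -1.43, was also lower in IP than in input, but its virus ratios had the opposite signs to those of the class. How far the low IP-to-input ratio accounts for the virus values of these genes was not tested.

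How the synthetases divided between IP and input was examined within each virus. With the control virus, 7 members were higher in IP, all cytosolic: Aars, Cars, Gars, Hars, Lars, Nars and Rars, 7 of 28 where 23.0% of all genes were. Another 5 were lower, namely Kars, Tars, Eprs, Cars2 and Lars2, where 12.5% of all genes were. With shLarp1, 9 were higher (Aars, Cars, Gars, Hars, Iars2, Lars, Nars, Sars and Wars; 25.9% of all genes) and 7 lower (Kars, Tars, Eprs, Qars, Cars2, Lars2 and Wars2; 13.1%). Medians were 0.98 with the control virus and 1.18 with shLarp1, beside 0.37 and 0.64 for all genes. The shares of the 28 were thus 25% higher and 17.9% lower with the control virus, and 32.1% and 25% with shLarp1.

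Gars had the highest ratio with the control virus, 3.78 (2.80 to 4.99), from 1190 IP counts and 8 input counts, or 13.7-fold after scaling. Of the 8 input counts 5 were in column 3, without which the ratio was 4.54 (2.99 to 6.82). With shLarp1 it had 2.73 (2.09 to 3.47). Lars, for leucine, held 71, 80 and 84 IP counts and 2, 0 and 0 input counts with the control virus (3.44, 1.57 to 6.49), and 113, 87 and 101 against 3, 3 and 1 with shLarp1 (2.04, 0.98 to 3.36). Hars had 2.37 (1.48 to 3.44) and 1.36 (0.72 to 2.09) with the respective viruses. In all 3 the IP was far above input, and their lower shLarp1 ratios came with overlapping intervals.

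Cars, the cytosolic cysteine enzyme, had 66, 55 and 74 IP counts and 0, 0 and 4 input counts with the control virus (2.17, 0.79 to 4.06). With shLarp1 it had 71, 81 and 70 against 1, 3 and 1 (2.08, 0.84 to 3.72). Aars, for alanine, gave 1.45 (0.82 to 2.15) and 1.65 (1.05 to 2.32), from 190, 211 and 219 and then 257, 255 and 245 IP counts. Its input columns were 11, 4 and 6 and then 3, 10 and 10. Aars overlaps Ddx19b in the annotation. Nars gave 1.38 (1.08 to 1.70) and 1.59 (1.3 to 1.90), the narrowest intervals among the members high in IP. Some of these calls were lost when a single input column was left out, which also shifted the TMM factors. Cars with the control virus was no longer called without control input column 1 (1.51, 0.14 to 3.40) or 2 (1.51, 0.13 to 3.40). With shLarp1, Aars was not called without shLarp1 input column 1 (1.02, 0.38 to 1.74), nor Lars without column 3 (1.43, 0.29 to 2.88). When an input column was left out, Hars with shLarp1 kept its call only in the run without shLarp1 input column 2.

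A few members passed with 1 virus and not the other. Rars, for arginine, held 95, 109 and 111 IP counts and 3, 4 and 3 input counts with the control virus and had 1.54 (0.64 to 2.61), against 1.18 (0.41 to 2.06) with shLarp1 from 103, 111 and 118 and 5, 5 and 4. Sars had 0.90 (0.55 to 1.27) and then 1.25 (0.88 to 1.64), from input columns of 16, 30 and 23 and of 22, 16 and 24. Wars, for tryptophan, had 127, 132 and 110 IP counts and 7, 5 and 5 input counts (1.00, 0.30 to 1.80), and then 159, 147 and 169 against 5, 5 and 4 (1.69, 0.93 to 2.58). Their intervals for both viruses overlapped, and the difference between viruses is the interaction, which called none of them. Iars2, for mitochondrial isoleucine, had 20, 21 and 23 counts in shLarp1 IP and 0 in each shLarp1 input column. Its shLarp1 ratio thus had only a lower limit, 0.69. With the control virus it had 19, 22 and 30 against 0, 0 and 2 (1.71, -0.19 to 4.79). Iars2 overlaps Rab3gap2.

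Kars and Tars had nearly the same ratios, the lowest with the control virus: -2.45 (-2.53 to -2.38) and -2.47 (-2.65 to -2.28) with the control virus, and -3.07 (-3.14 to -2.99) and -3.08 (-3.25 to -2.91) with shLarp1. Kars was thus 5.48-fold and then 8.37-fold lower in IP than in input. Cars2 had -2.18 (-2.39 to -1.97) and -3.19 (-3.38 to -2.99), the lowest value with shLarp1 though with an interval overlapping those of Kars and Tars, and Lars2 -1.79 (-1.92 to -1.65) and -1.06 (-1.20 to -0.92). The intervals for the control virus and for shLarp1 did not overlap in any of these 4. Wars2 had -1.19 (-1.76 to -0.58), which did not pass, and then -2.78 (-3.22 to -2.33).

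Eprs, the fused glutamate and proline enzyme, differed little between viruses, with -1.25 (-1.71 to -0.75) and -1.21 (-1.63 to -0.76). It had 71, 64 and 75 IP counts with the control virus and 85, 83 and 86 with shLarp1. Its input columns were uneven, at 7, 17 and 22 and then 28, 19 and 9, and it was the sole member whose columns differed beyond sampling noise at a chi-square p under 0.05 in both inputs. Qars, for glutamine, had -0.91 (-1.34 to -0.44) and -1.23 (-1.61 to -0.82). Its columns were 79, 114 and 96 in control IP, 106, 111 and 83 in shLarp1 IP, 18, 19 and 13 in control input and 20, 23 and 24 in shLarp1 input. These ratios depend on where the scale between IP and input is set: upper-quartile scaling moved every gene by -0.48 with the control virus and total counts by 0.97. The split of all genes then went from 2020 higher and 1095 lower to 1293 and 1590, and to 4509 and 652, and that of the members from 7 and 5 to 4 and 8, and to 17 and 4. With shLarp1 the shifts were -0.50 and 1.33, the splits of all genes 2274 and 1146, 1328 and 1489, and 6147 and 752, and those of members 9 and 7, 2 and 8, and 18 and 4. Kars, Tars and Cars2 were called lower, and Gars and Nars higher, under every scaling. Lars2 was lower with the control virus under all of them, and its shLarp1 ratio turned to 0.26 with total counts.

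**Figure D3:**
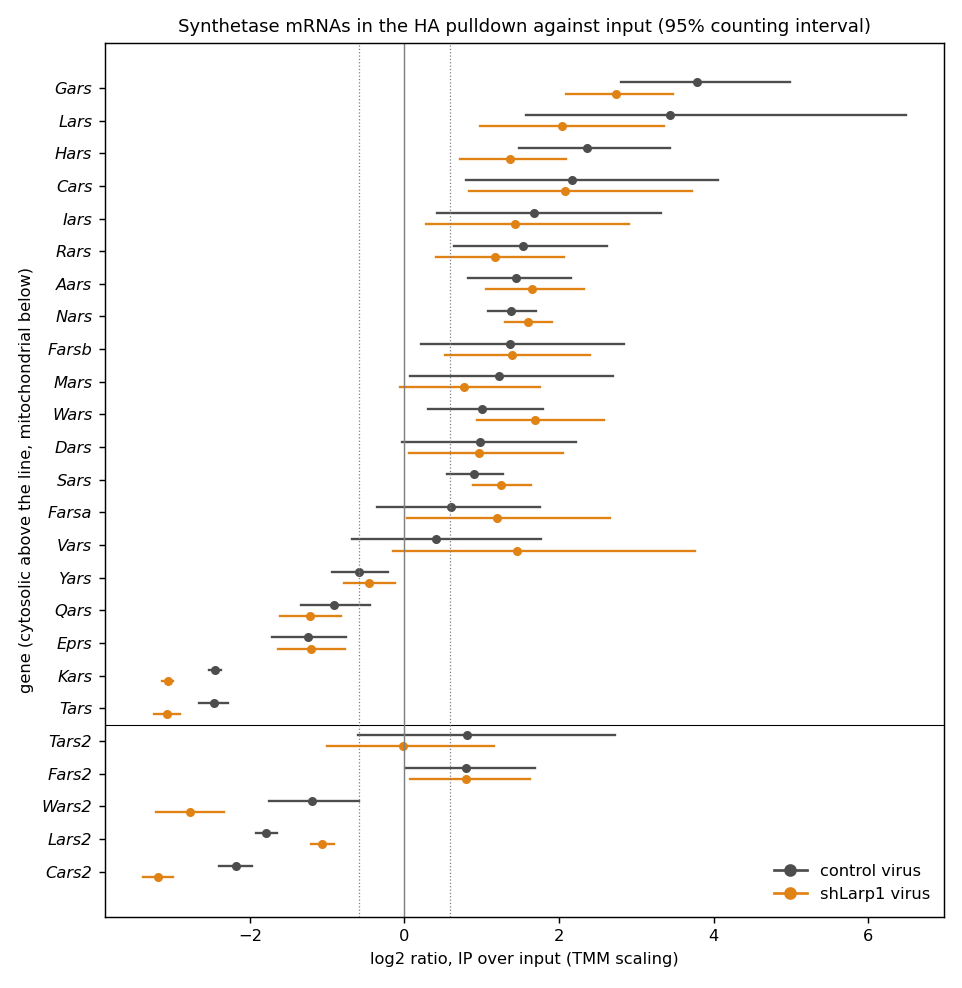
Log2 ratio of IP over input for 25 synthetases with finite ratios in both viruses (Yars2 and Iars2, with 0 counts in an input group, are not drawn), with 95% counting intervals and TMM scaling. Dotted lines mark 1.5-fold. Gars lies farthest to the right with the control virus, Kars, Tars and Cars2 lie farthest to the left and move further left with shLarp1, while Lars2 moves right.

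Shares of the family's own counts are free of the scaling between groups. Kars made up 71.9% (exact 95% interval 70.2 to 73.5) of the 2835 cytosolic synthetase counts in control input and 73.6% (72.2 to 75.0) of 3940 in shLarp1 input. In the IP its share was 28.6% (27.8 to 29.3) of 14101 counts and 24.0% (23.3 to 24.6) of 15162. Thus a single gene held most of the cytosolic synthetase counts in input and a minority of them in IP. Nars went the other way, from 3.17% in control input to 18% in control IP, and Gars from 0.282% to 8.44%. The summed cytosolic counts were lower in IP than in input, at log2 -1.12 (-1.18 to -1.06) with the control virus and -1.45 (-1.50 to -1.39) with shLarp1. Without Kars the sums had 0.22 (0.12 to 0.33) and 0.08 (-0.01 to 0.17), and without Kars and Tars, left out because their own ratios were low, 0.97 (0.83 to 1.11) and 1.00 (0.87 to 1.13).

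Mitochondrial synthetase counts were dominated by Lars2 and Cars2, and their balance differed between the viruses in opposite ways in input and IP. Lars2 made up 64.0% (60.7 to 67.1) of 885 control input counts and 47.8% (44.7 to 50.9) of 998 with shLarp1. In the IP it made up 55.0% (53.3 to 56.7) of 3229 control counts and 65.5% (63.9 to 67.0) of 3660 with shLarp1. The intervals did not overlap in either fraction. Cars2 had 29.7% (26.7 to 32.8) and 41.0% (37.9 to 44.1) in input, and 19.4% (18.1 to 20.8) and 12.9% (11.8 to 14.0) in IP. Wars2 had 3.50% (2.39 to 4.94) and 7.21% (5.69 to 9.0) in input, and 4.55% (3.86 to 5.33) and 3.01% (2.48 to 3.61) in IP. The summed mitochondrial counts as such had virus ratios of 0.03 (-0.04 to 0.10) in IP and -0.02 (-0.16 to 0.11) in input. Without Lars2 and Cars2 the sums had -0.21 (-0.35 to -0.07) in IP and 0.80 (0.33 to 1.29) in input. The latter came from 56 counts with the control virus and 112 with shLarp1, of which Wars2 held 31 and 72.

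Enzymes for the same amino acid in cytosol and mitochondria were compared as the mitochondrial minus the cytosolic virus ratio, again free of the scaling. In the IP the mitochondrial gene had the lower ratio, with an interval that excluded 0, for cysteine (Cars2 minus Cars, -0.60, -0.93 to -0.27), tryptophan (Wars2 minus Wars, -0.78, -1.19 to -0.37) and phenylalanine (Fars2 minus Farsb, -0.69, -1.06 to -0.33). Set against Farsa instead, the phenylalanine difference was 0.19 (-0.22 to 0.60), so it came from Farsb. In input, tryptophan alone had an interval that excluded 0, with Wars2 above Wars by 1.47 (0.30 to 2.65). Wars overlaps Wdr25. For leucine the IP interval included 0, at 0.08 (-0.19 to 0.34) for Lars2 minus Lars. It also included 0 for isoleucine (Iars2 minus Iars, -0.12, -0.70 to 0.45) and threonine (Tars2 minus Tars, 0.39, -0.07 to 0.85). The same held for tyrosine (Yars2 minus Yars, 0.44, -0.21 to 1.08).

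The 9 members below the filter were all mitochondrial (Aars2, Ears2, Hars2, Mars2, Nars2, Pars2, Rars2, Sars2 and Vars2). Their summed counts were 7 to 46 in an IP group and at most 3 in an input group. Vars2, for valine, had the lowest virus ratio, with 13, 7 and 8 counts in control IP and 1, 5 and 1 in shLarp1 IP (-2.15, -3.59 to -0.92). All its shLarp1 columns were below the control columns, and without the filter it would pass the 1.5-fold rule. Hars2 had 3, 5 and 1 counts against 10, 8 and 6 (1.26, 0.11 to 2.55), and it overlaps Hars. Rars2, which overlaps Orc3, had 12, 17 and 17 against 6, 10 and 9 (-1.03, -1.80 to -0.30). Mars2 had 5, 5 and 7 against 3, 3 and 4 (-0.92, -2.21 to 0.29). In both, all shLarp1 columns were below the control columns. The remaining members below the filter had overlapping IP columns and intervals that included 0. Of the other mitochondrial members above the filter, Tars2, Yars2 and Iars2 had IP ratios of 0.14 (-0.31 to 0.60), 0.60 (-0.05 to 1.28) and -0.30 (-0.81 to 0.21). Among cytosolic members, the IP intervals of Dars (0.11, -0.19 to 0.41), Iars (-0.18, -0.49 to 0.14), Vars (-0.38, -0.82 to 0.05) and Yars (0.16, -0.01 to 0.33) included 0. The same held for Aars (0.14, -0.02 to 0.29), Cars (0.04, -0.25 to 0.32), Eprs (0.12, -0.15 to 0.39), Lars (0.21, -0.05 to 0.46), Qars (-0.10, -0.34 to 0.14) and Rars (-0.08, -0.30 to 0.15). Wars had 0.21 (0.01 to 0.41), an interval above 0.

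Among genes that work with the synthetases, the 3 scaffolds of the multisynthetase complex had a median of 0.15 in IP and -0.70 in input. Aimp1 held 530 and 654 summed IP counts and 52 and 27 summed input counts, and it was higher in the interaction (1.28, 0.60 to 1.97). Tarsl2, a second cytosolic threonyl-tRNA synthetase that the symbol rule does not take in, had summed IP counts of 136 and 91 and summed input counts of 109 and 201. Its ratios were -0.73 (-1.13 to -0.34) in IP and 0.68 (0.34 to 1.03) in input, and it was lower in the interaction (-1.41, -1.92 to -0.90). It showed the same signs as Tars, and its IP-to-input ratios were lower still, at -3.12 and -4.53. Of the other 4 trans-editing and synthetase-like genes, none was called in a virus comparison.

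No gene of the 17 for tRNA maturation above the filter was called in IP, input or interaction, and their medians were 0.04, -0.42 and 0.29. The 6 genes of the eEF1 complex, which carries charged tRNA to the ribosome and includes the synthetase Vars, had medians of -0.12 in IP and -0.43 in input. Eef1g, its gamma subunit, was lower in shLarp1 input (154 to 83 summed counts, -1.09, -1.49 to -0.70), and the other 5 were not called. Of 22 amino acid response genes above the filter, 0 were called in IP, with a median of 0.12. The glycine transporter gene Slc6a9 was lower in input, with 9 counts in all for the control virus and 0 for shLarp1. Atf4 had 0.10 (-0.01 to 0.22) in IP and Asns, asparagine synthetase, 0.09 (-0.07 to 0.24), both near the median of their list. The mitochondrial charging partners had 3 of 7 genes above the filter, of which Tufm and Mtfmt had IP values of -0.19 (-0.43 to 0.04) and -0.48 (-1.21 to 0.24) and none was called in a virus comparison.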

How the data were processed

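The values the authors deposited are estimated counts of reads for each gene, given as whole numbers without any scaling. Tools and builds named in the submitters' processing notes are minimap2, Salmon, GRCm39 and mm39, with versions, annotation and use of strand not given in the sources used here. Libraries came from a nanopore cDNA-PCR kit, per the labels' protocols, which speak of lysate from fresh ganglia where the source is cultured neurons. Of 15391 genes, 13711 had a symbol. Members and lists were chosen with earlier results of these data known. The labels name no separate cultures, so p-values over columns would measure a spread that may be technical. Columns were summed per group and scaled by TMM over the 12 columns (edgeR 4.0.16, R 4.3.3). Genes below filterByExpr (minimum count 10) were left out, leaving 8773. Ratios carry exact 95% intervals (scipy 1.17.1), and a gene was called where the interval lay beyond 1.5-fold. Levels were not ranked between genes, because transcript lengths were not used here. Alternatives were other scalings, no filter, other thresholds, edgeR's quasi-likelihood test, DESeq2 1.42.0 and leaving out each column. Intervals, edgeR and DESeq2 were tested on simulated data. Named by column were members called in any comparison, the most abundant members, and Gars and Kars. Farsa, Farsb, Vars2, Hars2, Rars2, Mars2 and Mars were added after their values were seen. Context genes were named where called in a virus comparison, otherwise by abundance, and Tarsl2's ratios, Atf4, Asns, Tufm, Mtfmt, Nefl and Avil after their values were seen. Overlaps and promoters came from RefSeq (GRCm38.p6). The values of 1 member and 1 sequence are not reported here.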

Additional observations from a re-analysis of the deposited data

Results flagged for a closer look

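In 3 synthetases the virus ratio pointed in opposite directions in IP and input, with every scaled shLarp1 column on 1 side of every control column in both fractions. Kars was below control in IP and above it in input, a difference of -0.61 in log2. Tars showed the same arrangement, also at -0.61. Both belonged to the 781 genes with a low IP-to-input ratio, which had a median of -0.48 in IP and 0.43 in input. The median difference of that class was -0.90, so Kars and Tars did not stand out from it. Lars2 was above control in IP and below it in input, a difference of 0.73. With total-count scaling Kars and Tars were both at -0.25 and Lars2 was at 1.08. With TMM scaling the counting interval of each difference excluded 0 (Kars -0.72 to -0.51, Tars -0.86 to -0.36, Lars2 0.53 to 0.92). With the columns as replicates, edgeR and DESeq2 called all 3 in the interaction, as they did 974 and 990 of all 8773 genes. Intervals and tests rest on columns of 1 sample per group, so the difference has no replicate check.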

How the results depend on the processing

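All counts here are of called synthetases among 28, where the values reported were 0 (IP), 0 (input), 2 (interaction), 12 (IP over input, control virus) and 16 (IP over input, shLarp1). DESeq2 size factors gave 1 in input (Wars2), upper-quartile factors 10 in IP over input with shLarp1, and total counts 1 in the interaction (Lars2) and 21 in IP over input with the control virus. Without a filter the IP count was 1 (Vars2). A limit of 2-fold gave 0 in the interaction and 7 in IP over input with shLarp1. Intervals that only excluded equality gave 10, 5, 5 and 21 in the first 4 comparisons. Shares of all genes are not given here for the limit of 2-fold, for no filter or for left-out columns. Nor are they given for intervals that only excluded equality in the interaction and in IP over input. Those counts of members have no background beside them. Total counts gave 5 IP-over-input ratios with shLarp1 the other sign (Eprs, Lars2, Qars, Tars2 and Yars), of which the called ones became 0.12 for Eprs, 0.26 for Lars2 and 0.10 for Qars, and 2 with the control virus (Qars and Yars), while upper-quartile factors did so for Vars with the control virus; the construction of total counts moves every gene by 1.33 with shLarp1. Scaling shifted all genes by up to 0.13 in the IP virus comparison, from -0.23 to 0.21 in input and from -0.20 to 0.36 in the interaction. The splits of all genes into higher and lower went from 63 and 386 to 104 and 207 (upper quartile) in IP, from 13 and 77 to 181 and 35 (DESeq2) and 117 and 43 (upper quartile) in input, and from 105 and 422 to 47 and 553 (DESeq2) and 396 and 139 (total counts) in the interaction.

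With columns as replicates, edgeR called 6, 5, 5 and 21 in the first 4 comparisons, and DESeq2's test 5, 4, 5 and 19. Of all 8773 genes, edgeR called 2442, 780, 974 and 4861 there, and DESeq2 1881, 890, 990 and 4585. Same-numbered columns did not deviate together (no correlation above 0.1). Columns that differ by little more than sampling noise could hardly show a pairing, so this does not decide whether the numbers pair. With the replicate block edgeR called 6, 5, 5 and 20. Leaving out each column in turn gave 0 to 0 in IP, 0 to 1 in input, 2 to 3 in the interaction, 10 to 13 in IP over input with the control virus and 10 to 17 with shLarp1. TMM factors were computed again each time, so these counts hold a shift of scale as well as the loss of a column. The input call was Wars2, without control column 3 or shLarp1 column 1 or 3. The 10 with shLarp1 came without shLarp1 input column 1. Input depth limits most single values: the 9 members below the filter had at most 3 counts in either input group.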
